A study of Saccharomyces cerevisiae with 16 samples.

Results

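The genes that fell first after induction of ROF1 in budding yeast were sought on the arrays taken 15 and 20 min after β-estradiol was added. These are 4 arrays, 1 for each of cultures A and B at each time, set against the 2 arrays taken at 0 min from the same cultures, out of 16 arrays in the series. All 5669 genes that passed the filter on signal were tested, of 6225 targets on the array. Every culture was of 1 S288C-background strain in which the Z3 promoter, with URA3 as the divergent marker, replaces the native promoter of ROF1, and in which the ACT1 promoter drives Z3EV, an artificial activator that needs β-estradiol to work. The 15 min and 20 min groups are this strain after the hormone, and the 0 min group is the same strain in the same phosphate-limited chemostat just before it. The strain, the chemostat and the phosphate limitation are thus shared by all groups, and no strain that lacks the construct was analysed here, so an effect of the hormone or of Z3EV alone cannot be told apart from an effect of ROF1.

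ROF1 encodes a putative transcription factor with a WOPR domain, a DNA-binding fold found in fungal regulators of cell morphology, and MIT1 is its paralog. Proteins of this family act as switches between growth forms in several fungi. When a repressor is made suddenly, transcription of its direct targets can stop within minutes, but their mRNA falls only as fast as it decays, and genes further down the cascade follow later. An early fall is therefore the sign by which candidates for direct repression are usually picked, and it does not by itself tell a direct target from an indirect one.

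The values are log2 ratios of the sample (Cy5, red) over RNA of the reference strain DBY12001 (Cy3, green). A change is the difference of such ratios between times. Whether fewer cells held a transcript or each cell held less of it cannot be told apart in such bulk RNA. On the 6 arrays used here the median red signal ranged from 1325 to 1378, and red was well above background at 96.1% to 97.2% of spots. Between 6 and 15 spots were marked as outliers on 5 of these arrays and 183 on the 15 min array of culture B. Each culture was on its own slide, so culture and slide cannot be told apart. The sample expressed a-specific genes, with MFA1 at log2 ratios of 6.39 to 7.57, and had MF(ALPHA)1 at -7.89 to -7.46, against the reference.

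ROF1 (YHR177W) checked the labels first. Its red signal was 1263 and 1764 at 15 min and 1195 and 1449 at 20 min in cultures A and B, against 11.5 and 17.0 at 0 min. All 4 induced arrays lay far above both 0 min arrays. The change was 4.22 ± 0.13 on the log2 scale (SE; limma, adjusted p 5.44e-11), and its size depends on the floor of 50 applied to each signal, since the 0 min signals lie under it. URA3 (YEL021W), which shares the inserted cassette, changed by 3.30, 3.43, 3.42 and 3.32 on the 4 arrays and by 3.37 ± 0.06 in the fit. The genes on either side of ROF1 moved far less: FMO1, a flavin monooxygenase gene, stood at -0.26 ± 0.04 and STB5, a regulator of multidrug resistance and NADPH genes, at -0.23 ± 0.05 (SE; limma, adjusted p 1.03e-04 and 0.00269). Without the 0 min array of culture B, STB5 had an adjusted p of 0.0655.

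Few genes had fallen by 15 and 20 min. In the mean of the 2 times against 0 min, 18 genes passed as lower and 49 as higher, which is 0.318% and 0.864% of the genes tested. A call required both an adjusted p (limma) below 0.05 and a log2 change no smaller than 0.5 in size. Only 3 of the genes lower, YAP6, ICS2 and SFG1, had fallen by 1 or more, and the only genes higher by as much were ROF1 and URA3. Each of the 18 genes was lower on all 4 arrays than at 0 min of its own culture, and none of the 18 had a ratio on any of these arrays that reached the 0 min range. Non-overlap alone was common, at 16.2% of all genes tested on the lower side. The cultures differed little: the median SD between them over the 18 genes was 0.06 at 15 min and 0.04 at 20 min (n = 2 cultures), the largest being 0.23, for RTA1 at 15 min. The median change over all genes was 0.00.

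**Figure D1:**
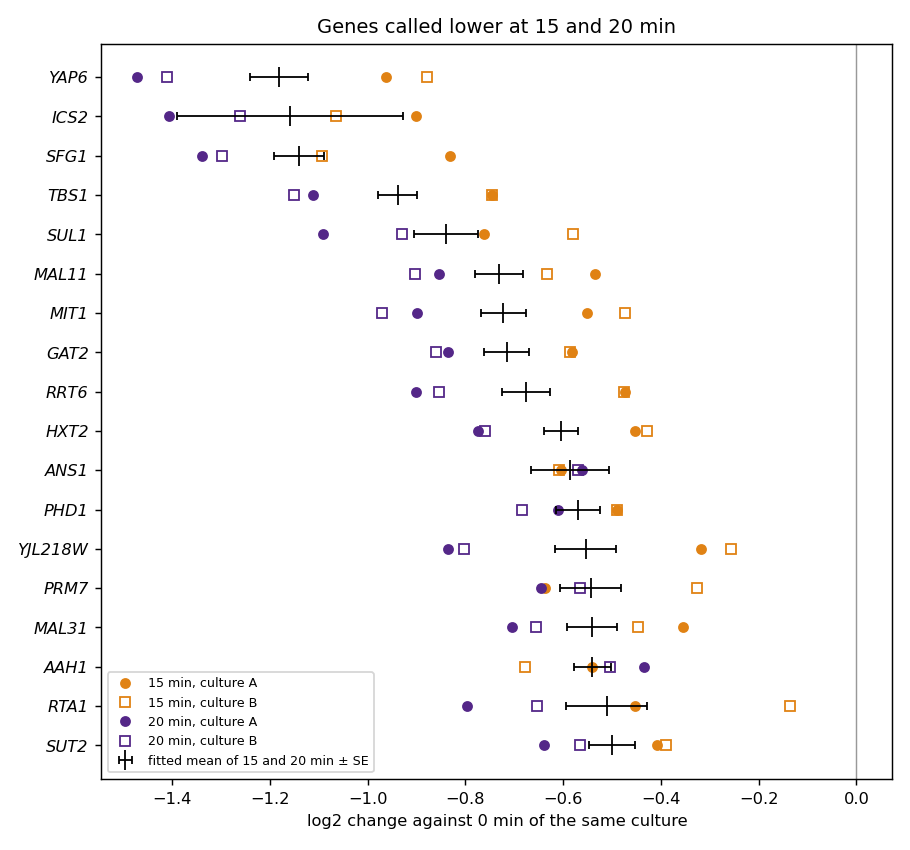
The log2 change against 0 min of the same culture (x axis) is drawn for the 18 genes called lower, by array (orange, 15 min; purple, 20 min; filled circles, culture A; open squares, culture B), with the fitted mean of both times and its SE in black. All points lie below 0, and for most genes the 20 min points lie left of the 15 min points, as for YAP6 at -1.47 and -1.41 against -0.96 and -0.88.

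The genes called lower are described by the roles of their products, a grouping made after the calls. Transcription factor genes are given first. YAP6 (YDR259C), a bZIP factor that can bind the Tup1-Cyc8 corepressor, had log2 ratios of -1.20 and -1.32 at 15 min and -1.71 and -1.86 at 20 min in cultures A and B, against -0.24 and -0.45 at 0 min. Its change was -1.18 ± 0.06, a 2.27-fold fall (SE; limma, adjusted p 9.35e-09). The reference channel of YAP6 also moved, by -0.29, and the red channel alone gave -1.46. SFG1 (YOR315W), a regulator needed for superficial pseudohyphal growth, had ratios of -0.23 and -0.46 at 15 min and -0.74 and -0.67 at 20 min, against 0.60 and 0.63 at 0 min. Every induced array of SFG1 was below its 0 min pair by 0.83 or more, and the fitted change was -1.14 ± 0.05 (adjusted p 2.42e-09). TBS1 (YBR150C), a zinc cluster protein gene, had ratios of -0.67 and -0.70 at 15 min and -1.04 and -1.10 at 20 min, against 0.07 and 0.05 at 0 min. Against its own 0 min array TBS1 stood at -0.75 in both cultures at 15 min and at -1.11 and -1.15 at 20 min, and the fitted change was -0.94 ± 0.04 (adjusted p 1.93e-09).

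An activator of filamentous growth and the paralog of the induced gene, MIT1 (YEL007W) had log2 ratios of -0.60 and -0.48 at 15 min and -0.94 and -0.98 at 20 min, against -0.04 and 0.00 at 0 min. Its change of -0.72 ± 0.05 (SE; limma, adjusted p 1.11e-07) stands beside one of -0.72 ± 0.05 for GAT2 (YMR136W), a GATA-family zinc finger gene. GAT2 had ratios of -0.74 and -0.76 at 15 min and -0.99 and -1.04 at 20 min, against -0.16 and -0.18 at 0 min, again with no overlap. PHD1 (YKL043W), whose product drives pseudohyphal growth when overproduced, had ratios of -0.55 and -0.57 at 15 min and -0.67 and -0.76 at 20 min, against -0.06 and -0.08 at 0 min, a change of -0.57 ± 0.05. SUT2 (YPR009W), a zinc cluster gene related to the sterol uptake regulator SUT1, was at the limit with -0.50 ± 0.05. It stood at -0.41 and -0.39 at 15 min and at -0.64 and -0.57 at 20 min. Its change missed the minimum when single arrays were dropped, at -0.48 without 0 min A, -0.49 without 20 min A and -0.49 without 15 min B.

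Membrane transporter genes, grouped in the same way, come next. SUL1 (YBR294W), the high-affinity sulfate permease, had log2 ratios of -2.48 and -2.67 at 15 min and -2.81 and -3.02 at 20 min, against -1.72 and -2.09 at 0 min. Culture B stood below culture A at each of these times, and the change was -0.84 ± 0.07 (SE; limma, adjusted p 6.11e-07). HXT2 (YMR011W), a high-affinity glucose transporter, had ratios of -0.93 and -1.07 at 15 min and -1.25 and -1.40 at 20 min, against -0.47 and -0.64 at 0 min, and changed by -0.60 ± 0.04. The maltose permease genes MAL11 (YGR289C) and MAL31 (YBR298C) fell by 0.73 ± 0.05 and 0.54 ± 0.05 on the log2 scale. MAL11 had ratios of -0.56 and -0.69 at 15 min and -0.87 and -0.96 at 20 min, against -0.02 and -0.06 at 0 min. These permeases are close relatives, so their probes may read each other's RNA and the pair may not be separate measurements.

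The remaining genes called lower have other or unknown roles. ICS2 (YBR157C), of unknown function, had the second lowest change, -1.16, with ratios of -0.62 and -0.65 at 15 min and -1.13 and -0.85 at 20 min, against 0.28 and 0.42 at 0 min. All 4 of its induced arrays agree, but its SE of 0.23 was 5.08 times the median of all genes and the cultures stood apart at 90 min, with an SD of 1.07 (n = 2). Its adjusted p was 0.00223, and 0.0529 without the 0 min array of culture B. RRT6 (YGL146C) changed by -0.68 ± 0.05, YJL218W, a putative acetyltransferase gene, by -0.55 ± 0.06, and PRM7 (YDL039C), a pheromone-regulated gene, by -0.54 ± 0.06 (SE). RRT6 stood at -0.47 and -0.48 at 15 min and at -0.90 and -0.85 at 20 min against its own 0 min arrays, and YJL218W at -0.32 and -0.26 and then at -0.84 and -0.80. Both lay lower at the later time, while PRM7 stood at -0.64 and -0.33 at 15 min and at -0.64 and -0.57 at 20 min. The reference channel of YJL218W moved by -0.31, the red channel alone gave -0.86 and a floor of 200 gave -0.12, and its adjusted p missed the threshold under both and with the 6 arrays fitted alone, the highest being 0.0989. RRT6 lies next to the ribosomal protein gene RPL9A, which stood at -0.29 ± 0.04. AAH1 (YNL141W), which encodes adenine deaminase, stood at -0.54 ± 0.04, with changes of -0.54 and -0.68 at 15 min and -0.43 and -0.50 at 20 min. ANS1 (YHR126C), a putative cell surface protein gene, and RTA1 (YGR213C), a gene of resistance to 7-aminocholesterol, stood at -0.59 ± 0.08 and -0.51 ± 0.08. ANS1 lay between -0.61 and -0.56 on all 4 arrays, and RTA1 between -0.80 and -0.14. The red signals of ANS1 and RTA1 at 0 min were 84.4 to 93.6, close to the floor, and with a floor of 200 neither could be measured. Besides ICS2, single arrays decided the calls of PRM7, RTA1 and AAH1. PRM7 stood at -0.47 without 0 min A and -0.49 without 15 min A. RTA1 stood at -0.46, -0.45 and -0.50 without 0, 15 and 20 min A in turn, and AAH1 at -0.50 without 0 min B, each just short of the minimum change.

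The 2 times were next taken apart. At 15 min 18 genes were lower than at 0 min, and at 20 min 29 genes, which is 0.318% and 0.512% of those tested. Both comparisons share the 0 min arrays, so the values are given side by side. YAP6 stood at -0.92 at 15 min and -1.44 at 20 min, ICS2 at -0.98 and -1.33, SFG1 at -0.96 and -1.32, and TBS1 at -0.75 and -1.13. SUL1 stood at -0.67 and -1.01, MAL11 at -0.58 and -0.88, and MIT1 at -0.51 and -0.94. The test of the step between the 2 times passed for all of these except ICS2. At 20 min genes were called whose change at 15 min was short of the minimum of 0.5. Some had already moved by 15 min, such as CIN5 and DSE4 (limma, adjusted p 0.013 and 7.52e-05 at 15 min). CIN5 (YOR028C), a bZIP gene of the YAP family, changed by -0.23 and -0.21 at 15 min and by -0.62 and -0.69 at 20 min (20 min, adjusted p 3.36e-06). The aquaporin gene AQY1 (YPR192W) changed by -0.19 and -0.02 at 15 min and by -0.65 and -0.45 at 20 min, and DSE4, a daughter-cell glucanase gene, by -0.31 and -0.32 and by -0.63 and -0.55.

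Other genes lower at 20 min are given here because of their values. ZPS1, a zinc- and pH-regulated surface protein gene, stood at -0.29 at 15 min and -0.65 at 20 min. SKM1, a PAK-family kinase gene, stood at -0.22 and -0.61, and RSB1, a sphingoid base transporter gene, at -0.16 and -0.58. SUR2, the hydroxylase of sphingoid bases, stood at -0.30 and -0.52. REE1 (YJL217W), the neighbour of YJL218W, stood at -0.24 and -0.57. In all of these the 20 min value of each culture was below its 15 min value.

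Some genes called lower at 15 min stood higher again at 20 min. DBP2, an RNA helicase gene, changed by -0.57 on both 15 min arrays and by -0.29 and -0.26 at 20 min. REX4, a putative RNA exonuclease gene, changed by -0.56 and -0.63 at 15 min and by -0.20 and -0.29 at 20 min. DHR2, a nucleolar helicase gene, stood at -0.57 at 15 min and -0.19 at 20 min. NOP7 and RRP5, both needed to build ribosomes, stood at -0.51 and -0.50 at 15 min and at -0.29 and -0.19 at 20 min. DBP2, REX4, DHR2 and NOP7 stood lower at 10 min than at 15 min, at -0.80, -0.73, -0.77 and -0.61 in that order. RRP5 stood at -0.39 at 10 min and was lowest at 15 min. All 5 genes rose from 15 to 20 min at an adjusted p (limma) below 0.05. Other genes called at 15 min had a positive step to 20 min that did not pass, among them RMT2, at 0.10 (adjusted p 0.254), YCR087C-A, at 0.13 (adjusted p 0.242), and AAH1, at 0.14 (adjusted p 0.0703). Of the 44 genes listed for ribosome biogenesis, NOP7 and RRP5 were called lower at 15 min, against 0.318% of all genes tested. With no minimum change 43 of the 44 were lower at 15 min, against 640 of the 5669 genes tested. DBP2, REX4, DHR2, RMT2 and YCR087C-A, too, were picked once their values were known.

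**Figure D2:**
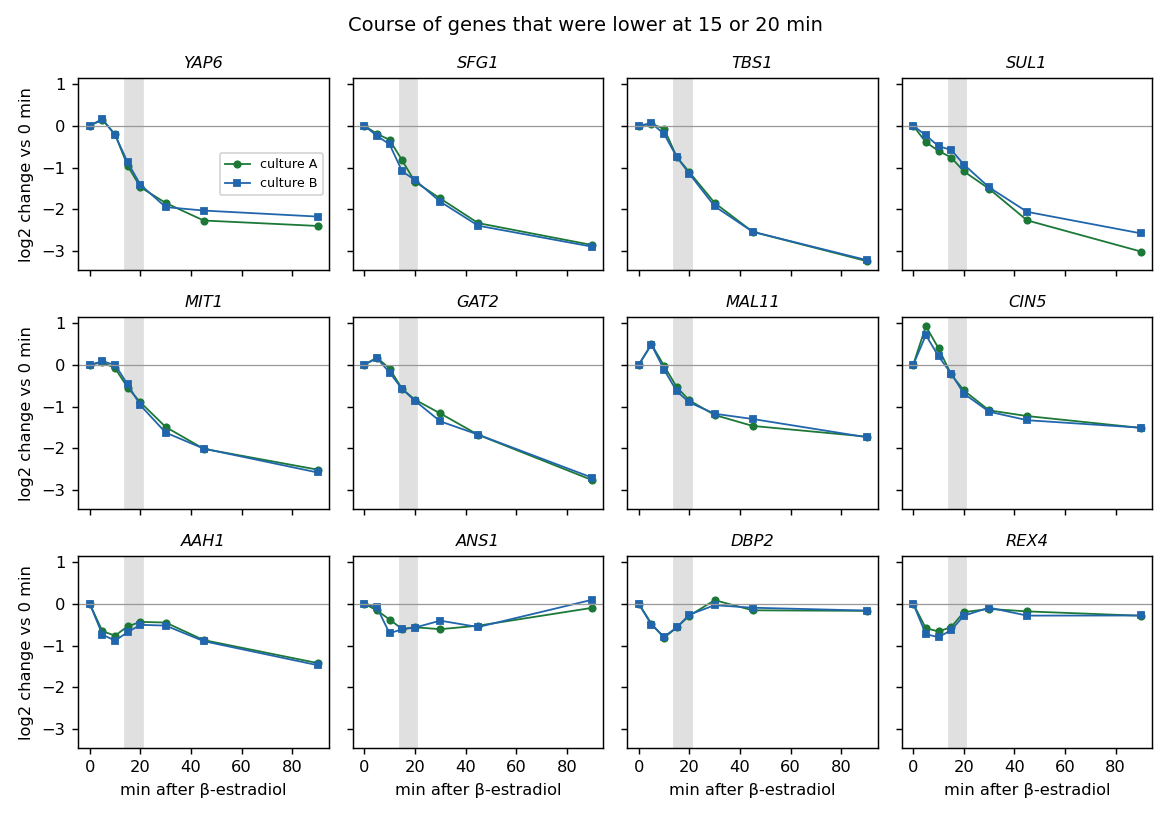
The log2 change against 0 min (y axis) is drawn for 12 genes over 0 to 90 min after β-estradiol (x axis), with culture A in green circles, culture B in blue squares and the span of 15 and 20 min shaded. YAP6, TBS1 and MIT1 go down steeply after 10 min, CIN5 and MAL11 stand above 0 at 5 min, and DBP2 and REX4 are lowest at 10 min and come back.

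The step between the 2 times does not use the 0 min arrays. Between 15 and 20 min 182 genes fell and 174 rose at an adjusted p under 0.05 with no minimum change (limma), which is 3.21% and 3.07% of the genes tested. Of the 18 genes called lower in the mean, 13 fell further, and for none did the rise back pass the threshold. The lowest steps among the 18 were those of YJL218W, -0.53 (adjusted p 0.00142), YAP6, -0.52 (adjusted p 0.00142), RTA1, -0.43, MIT1, -0.42 (adjusted p 8.91e-04), and RRT6, -0.40. Steps that did not pass were those of ICS2, -0.35 (adjusted p 0.45), PHD1, -0.16 (adjusted p 0.0813), PRM7, -0.12, ANS1, 0.04, and AAH1, 0.14. The count of 182 depends on the setting. It was 54 with the 6 arrays at 0, 15 and 20 min alone and 0 with the red channel alone. It was also smaller with any 1 of the 6 arrays left out, which leaves 1 array at that time.

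The arrays at 5 and 10 min show when each fall began. From the mean of 5 and 10 min to the mean of 15 and 20 min 386 genes fell at an adjusted p under 0.05 with no minimum change, 6.81% of those tested. This comparison shares the 15 and 20 min arrays with the main one. Among the 18 genes, 16 fell over this span, with YAP6 at -1.15, MAL11 at -0.94, ICS2 at -0.91, TBS1 at -0.90 and SFG1 at -0.84. The exceptions were PRM7, at -0.08 (adjusted p 0.329), and AAH1, which rose by 0.22 (adjusted p 2.29e-04). AAH1 already stood at -0.82 at 10 min, and PRM7 stood at -0.53 at 5 min. SUL1 stood at -0.31 at 5 min and -0.55 at 10 min. ANS1 and ICS2 stood at -0.12 and 0.01 at 5 min and at -0.54 and -0.52 at 10 min. Of the 18 genes, 3 were called lower at 10 min. Before their fall some genes were above 0 min: at 5 min MAL11 stood at 0.49, MAL31 at 0.48, HXT2 at 0.35, CIN5 at 0.82 and RSB1 at 0.80.

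Most of the 18 genes went on falling after 20 min. From 15 and 20 min to 90 min 216 genes fell and 160 rose with the same thresholds as in the main comparison, which are 3.81% and 2.82% of the genes tested. The 15 and 20 min arrays are used in both comparisons. Of the 18 genes, 14 fell by at least 0.5 more and 1, ANS1, rose, by 0.59 ± 0.08, to stand at 0.00 at 90 min. The largest further falls were those of TBS1, -2.29, HXT2, -2.07, GAT2, -2.02, SUL1, -1.95, MIT1, -1.82, and SFG1, -1.73. YAP6, the lowest gene in the mean of 15 and 20 min, fell by 1.11 more and stood at -2.29 ± 0.16 at 90 min (SD, n = 2), against -3.23 ± 0.02 for TBS1. Over the 18 genes the median change was 0.03, -0.21, -0.55, -0.83, -1.22, -1.53 and -1.68 at 5, 10, 15, 20, 30, 45 and 90 min in that order.

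**Figure D3:**
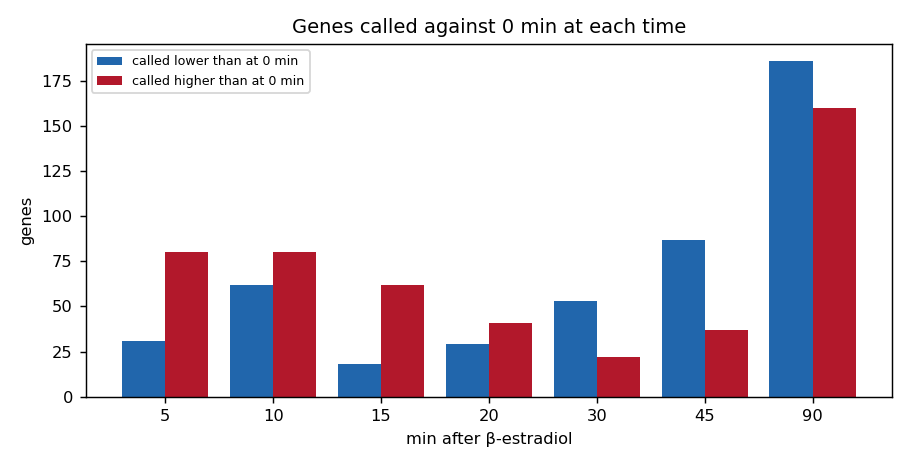
Bars give the number of genes called lower (blue) and higher (red) than at 0 min at each time after β-estradiol (x axis), by the same rule for a call. Genes lower number 31, 62, 18, 29, 53, 87 and 186 at 5, 10, 15, 20, 30, 45 and 90 min in that order, so the count is smallest at 15 min.

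Gene lists were then counted in the mean of 15 and 20 min, without a test of the lists. Of 11 transcription factor genes that the study named from these same arrays, 5 were called lower and none higher. Over all genes tested the shares called were 0.318% lower and 0.864% higher. With no minimum change 10 of the 11 were lower, against 11.7% of all genes tested (663 genes). Since the study chose them on these arrays, their direction is not independent evidence. Their median change was -0.44, against 0.00 over all genes, and it was -0.22 at 15 min and -0.65 at 20 min. Besides YAP6, TBS1, MIT1, GAT2 and PHD1, which were called, CIN5 stood at -0.44, CUP9, a repressor of peptide import, at -0.28, and ACA1, a bZIP activator gene, at -0.26. GCN4, the activator of amino acid synthesis, stood at -0.14 ± 0.05, MOT3 at -0.14 ± 0.04 and NRG1, a repressor of glucose-repressed genes, at -0.11 ± 0.05 (SE; adjusted p 0.0307, 0.0211 and 0.102). With the 6 arrays at 0, 15 and 20 min fitted alone, GCN4 (adjusted p 0.372) and MOT3 (adjusted p 0.174) did not pass the threshold. Both also missed it when any 1 of the 0 min arrays or of the culture A arrays at 15 and 20 min was left out, with adjusted p of 0.0578 to 0.237.

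Among 22 regulators of filamentous growth 3 were called lower, against 0.318% of all genes tested. These were SFG1, MIT1 and PHD1, and the list median was -0.01. MIT1 and PHD1 are also among the 11 transcription factors that the study named from these arrays. SOK2, a repressor relative of PHD1, stood at -0.27 ± 0.04. FLO11, the cell surface flocculin on which these regulators converge, was at 0.11, and its activators FLO8 and MSS11 at 0.05 and 0.08, with no call. Of 21 genes for Tup1-Cyc8 and factors linked to it, 3 were called lower, against 0.318% of all genes tested. These were YAP6, PHD1 and SUT2. YAP6 and PHD1 were already counted among the 11 transcription factors, and PHD1 in the filamentation list. With no minimum change 10 of the 21 were lower, against 11.7% of all genes tested, and the list median was -0.11. CUP9, YAP6, CIN5, PHD1 and MOT3 are among the 10 and were named by the study from these arrays. The excess is therefore not independent evidence. The corepressor genes themselves stood at -0.08 for TUP1 and -0.07 for CYC8 (adjusted p 0.443 and 0.269). In the GATA family GAT2 was the only gene called of 8 (median -0.03), and in the YAP family YAP6 was the only one of 8 (median -0.06). Both were named by the study from these arrays, and 0.318% of all genes tested were called lower.

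Few members of the transport lists were called. Over all genes tested 0.318% were called lower and 0.864% higher. In sulfate and methionine uptake and assimilation SUL1 was the only gene called of 19 (median -0.17). All 19 were below 0, as were 2758 of the 5669 genes tested. Lower with no minimum change were 14 of the 19, against 11.7% of all genes tested. The methionine permease gene MUP1 stood at -0.43 ± 0.05 and MMP1, which takes up S-methylmethionine, at -0.36 ± 0.05, while the second sulfate permease gene, SUL2, stood at -0.14. MUP1 stood at -0.63 at 5 min and 0.34 at 90 min, where SUL1 stood at -0.31 and -2.79. Hexose transport split, with a median of 0.00 over 15 genes: HXT2 was lower, HXT6 and HXT7 were higher by 0.51 ± 0.04 each, and HXT5 stood at 0.43 ± 0.04. HXT6 and HXT7 are near-identical neighbours and cannot be separated by hybridisation with certainty. They had stood at 1.24 and 1.28 at 5 min.

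Aquaporin and siderophore genes, which the study also picked from these arrays, had no call in the mean. AQY2 stood at -0.42 ± 0.04 and its overlapping neighbour YLL053C at -0.40 ± 0.04, AQY1 at -0.33 ± 0.04, AQY3 at 0.16 ± 0.04 and FPS1 at 0.02 (median -0.33). AQY1 and AQY2 reached -2.43 and -1.59 at 90 min. The siderophore transporter genes stood at -0.35 for ARN1, -0.28 for SIT1, -0.16 for ENB1 and -0.09 for ARN2, with no call and a median of -0.22. The Aft1 iron regulon had no call among 19 genes and a median of -0.01. The phosphate regulon, with 15 genes, and the G1 cyclins, with 8, had no call and medians of 0.02 and 0.01. PHO12, an acid phosphatase gene, was the lowest of the phosphate list at -0.34, and it too has a near-identical copy. Of 14 genes of daughter-cell separation none was called in the mean, with DSE4 lowest at -0.45 and a median of -0.01. No call was made among 7 a-specific genes (median -0.03) or 4 alpha-specific genes (median 0.01). Of 14 cell wall genes SPI1 alone was called, as higher, and the list median was 0.13. SPI1 is also counted in the list of stress-induced genes. The shares of all genes tested called lower and higher were 0.318% and 0.864%.

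**Figure D4:**
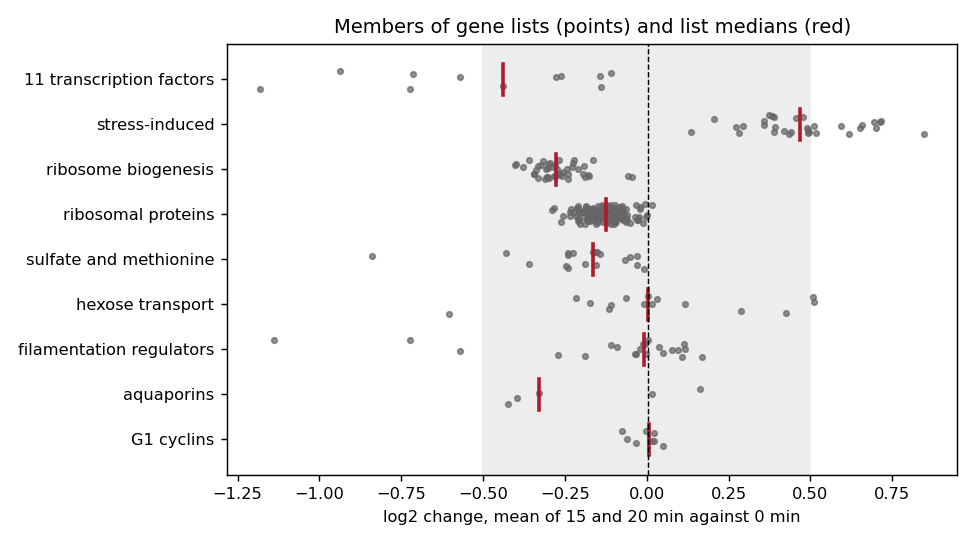
Points are the log2 changes of single genes in the mean of 15 and 20 min against 0 min (x axis), by gene list, the red bars are list medians, the dashed line is the median of all genes and the grey band spans the minimum change of 0.5. The stress-induced list lies right of 0, with a median of 0.47, and the ribosome biogenesis list left of it, at -0.28, while the filamentation list is centred at -0.01 with 3 genes far to the left.

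The genes called higher included members of the general stress response. Of 32 genes of that response, 11 were called higher, against 0.864% of all genes tested, and none lower. All 32 were above 0 on all 4 arrays, a share not counted over all genes. The median of the 32 was 0.47, and it was 0.46, 0.66, 0.55, 0.41 and 0.06 at 5, 10, 15, 20 and 90 min in that order. HSP26, a small heat shock chaperone gene, had log2 ratios of 0.82 and 1.07 at 15 min and 0.88 and 1.18 at 20 min, against -0.06 and 0.34 at 0 min, a change of 0.85 ± 0.07 (SE; limma, adjusted p 5.46e-07). CTT1, cytosolic catalase, and HSP12, a membrane-protecting stress protein, rose by 0.72 ± 0.06 and 0.71 ± 0.04. PGM2, phosphoglucomutase, rose by 0.70 ± 0.06 and stood at 1.08 at 10 min and at -0.46 at 90 min. From 15 and 20 min to 90 min 27 of the 32 fell with no minimum change, as did 23.4% of all genes tested.

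**Figure D5:**
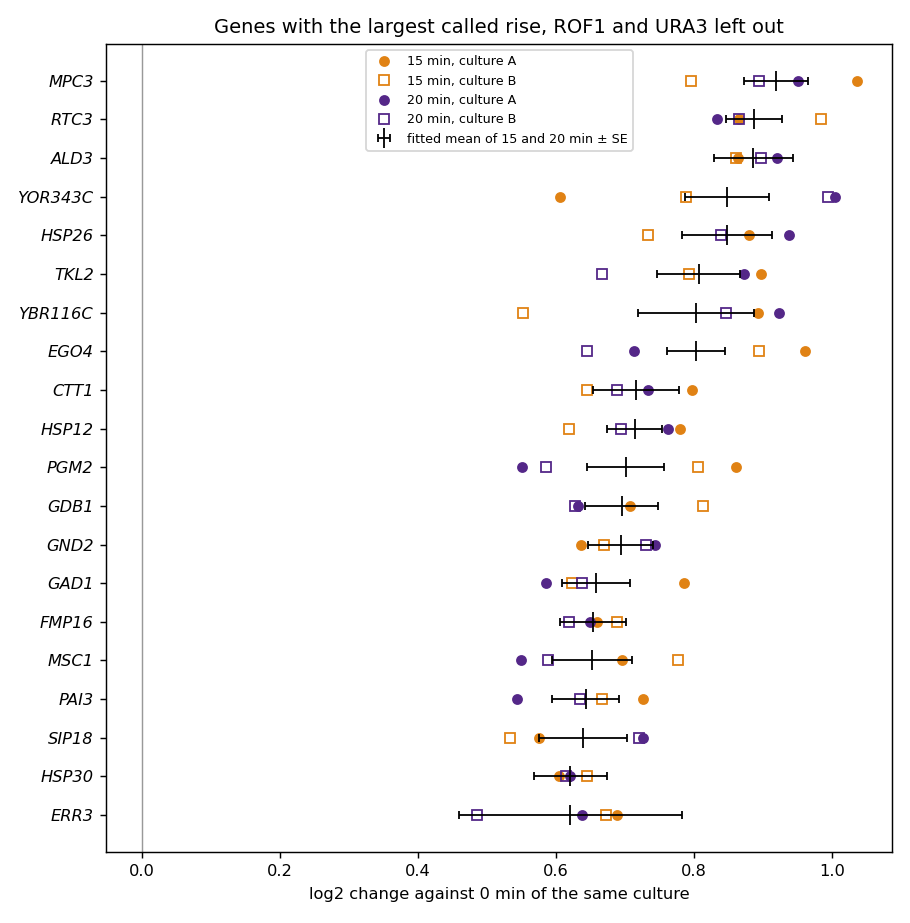
The log2 change against 0 min of the same culture (x axis) is drawn by array for the 20 genes with the largest called rise after ROF1 and URA3, with symbols for time and culture as in the plot of genes called lower and the fitted mean ± SE in black. All points lie above 0, between 0.49 for ERR3 and 1.04 for MPC3.

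Outside that list the largest rises were those of MPC3 (YGR243W), which encodes a mitochondrial pyruvate carrier subunit, and RTC3 (YHR087W), a gene of RNA metabolism. MPC3 changed by 1.04 and 0.80 at 15 min and by 0.95 and 0.89 at 20 min, and by 0.92 ± 0.05 in the fit. RTC3 changed by 0.89 ± 0.04, and ALD3, a cytosolic aldehyde dehydrogenase gene, by 0.89 ± 0.06. TKL2, a transketolase gene, rose by 0.81 ± 0.06, its neighbour YBR116C by 0.80 ± 0.08 and EGO4 by 0.80 ± 0.04. YOR343C rose by 0.85 ± 0.06, and by a further 0.30 between 15 and 20 min (adjusted p 0.0248). Of the 49 genes called higher, 28 fell by at least 0.5 from 15 and 20 min to 90 min and 5 rose by as much. RNR2, the small subunit of ribonucleotide reductase, was among those that rose, with 0.61 at 15 and 20 min and 1.79 at 90 min, and HSP30 was another, with 0.62 and 1.50. With the red channel alone the count of genes higher was 28.

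No gene of the ribosome lists was called in the mean. Of 44 ribosome biogenesis genes 42 were lower with no minimum change, against 11.7% of all genes tested. Below 0 on all 4 arrays were 43 of the 44, a share not counted over all genes. The median of the 44 was -0.28, and it was -0.31, -0.46, -0.34, -0.21 and -0.06 at 5, 10, 15, 20 and 30 min in that order. NOP1, the fibrillarin gene, stood at -0.40 ± 0.06, NOP7 at -0.40 ± 0.04 and NSR1, a nucleolar RNA-binding protein gene, at -0.38 ± 0.05. Between 15 and 20 min 16 of the 44 rose with no minimum change and none fell, while 3.07% of all genes tested rose. Of the 11 listed transcription factors 6 fell over this step, as did 3.21% of all genes tested, and none rose. Of 136 ribosomal protein genes 64 were lower with no minimum change, against 11.7% of all genes tested. The list median was -0.12, with RPL9A lowest at -0.29 and RPL15B highest at 0.02.

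Each culture was also taken alone. Culture A had 11 genes and culture B 9 genes that were lower by at least 0.5 on both of its arrays, with no test, and 8 genes were common to both, which is 72.7% and 88.9% of the 2 lists. Under 18 other settings of the fit, 7 of the 18 genes called lower were called each time: YAP6, SFG1, TBS1, SUL1, MAL11, MIT1 and GAT2. Another 5 of the 18 lay within 0.05 of the minimum change.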

How the data were processed

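RNA of 2 chemostat cultures (A and B) was hybridised at 8 times, 1 two-colour Agilent array per culture and time, with no dye swap. The authors deposited processed intensity values per spot, background subtracted and dye normalized by Feature Extraction per the file headers, and a table of log2 ratios made after both intensities were floored at 50. No spot of that table differed by more than 0.0001 from the ratio recomputed from the scanner files. Outlier spots were left out, spots of a probe averaged, and the brightest probe was taken for 29 targets with several. Genes were tested that had red well above background on 2 or more of 16 arrays and a signal over the floor on 2 or more of the 6 arrays at 0, 15 and 20 min. A RefSeq table of assembly R64 matched 5737 of 6225 targets and was used for names and neighbours.

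Changes were fitted with limma 3.58.1 in R 4.3.3 from the 16 arrays together, with a term for each time and a block for each culture (7 residual degrees of freedom), and adjusted by Benjamini-Hochberg over 5669 genes. The contrasts were the mean of 15 and 20 min minus 0 min, each time minus 0 min, 20 minus 15 min, 90 min minus the mean of 15 and 20 min, and, added after seeing the data, the mean of 15 and 20 min minus that of 5 and 10 min. The labels give each culture its letter at every time. With only 2 cultures, the p-values rest on departures from a constant difference between them. These departures are pooled over the 8 times and moderated across genes. Successive samples of a culture were treated as independent. On simulated data for the main contrast over 5669 genes, the fit recovered 97.5% of genes with a change of -0.75 and 100% with -1. The simulated noise was independent between arrays, with no culture difference and no change at other times. It therefore does not show how calls near the minimum change behave.

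The genes named are ROF1, URA3 and the neighbours of ROF1, the genes called lower, the 12 with the largest called rise of 1 sign on all 4 arrays, the transcription factors named by the study and up to 4 members of each list with the largest change. Any other gene, such as FLO11, TUP1, RRP5, RNR2 and HSP30, was picked after its values were seen. The comparison, its members and the lists were chosen with earlier results of these data known. Alternatives were normexp with loess, other floors and filters, median centring, the red channel alone, the 6 arrays alone, no block, another prior variance, other minimum changes, and arrays or cultures left out. A planned motif search was not run because no promoter sequence was used here. Figures were drawn with matplotlib 3.10.9.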

Additional observations from a re-analysis of the deposited data

Results flagged for a closer look

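For several genes the effect differed between 15 and 20 min by the test of 20 minus 15 min (limma, adjusted p under 0.05). It was lower at 20 min for YAP6 (-0.52), SFG1 (-0.36), TBS1 (-0.39), SUL1 (-0.34), MAL11 (-0.30), MIT1 (-0.42), GAT2 (-0.27), RRT6 (-0.40), HXT2 (-0.33), YJL218W (-0.53), MAL31 (-0.28), RTA1 (-0.43) and SUT2 (-0.20), all of which were called lower in the mean. The same held for the transcription factor genes CIN5 (-0.43) and GCN4 (-0.24). Among the genes with the largest rises YOR343C was higher at 20 than at 15 min (0.30) and EGO4 lower (-0.25).

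One array stood apart for ARN2, a siderophore transporter gene that was not called: its change on the 20 min array of culture A was -0.029, against -0.10 to -0.11 on the other 3. Chance puts 1 sample apart in this way in about 1 in 20 groups, and 92 named genes were looked at.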

How the results depend on the processing

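The comparison without the culture as replicate block gave 18 genes lower and 49 higher in the mean, 18 lower at 15 min, 29 lower at 20 min and 216 lower from 15 and 20 to 90 min, the same counts as with it, but 116 in place of 182 falling from 15 to 20 min. That count was also 54 with the 6 arrays alone and 0 with the red channel alone, where 238 genes fell at an unadjusted p under 0.05, and 34 to 145 with 1 array left out. Leaving out 1 array gave 16 to 18 genes lower and 43 to 55 higher in the mean, 18 to 26 lower at 15 min, 28 to 31 lower at 20 min and 216 to 222 lower from 15 and 20 to 90 min. With the red channel alone 28 genes were higher in the mean, 7 lower at 15 min and 14 lower at 20 min. In the mean 13 genes were then lower, 12 of them among the 18. HXT2, PHD1, YJL218W, MAL31, AAH1 and SUT2 were not called with the red channel alone. A minimum change of 1 left 3 genes lower and 2 higher in the mean, 0 lower at 15 min (0 also at an unadjusted p under 0.05), 5 lower at 20 min and 56 lower from 15 and 20 to 90 min. With no minimum change these were 663, 626, 640, 495 and 1325. Culture A alone gave 11 genes lower in the mean, and culture B alone 9 lower and 32 higher in the mean and 29 lower at 15 min, with no test. With normexp and loess 13 genes were lower in the mean, all among the 18, and with a floor of 200 there were 14; ANS1 and RTA1 lie under that floor. Of 1649 values of named genes under other settings, 20 changed sign, in 11 genes that had not passed the threshold, and 0 did so among the 74 genes that had. Another 119 lost the threshold, 49 of them with the red channel alone. Dim probes, 2 cultures on 2 slides and the lack of a strain without the construct limit what can be read from small changes.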
